A study of Mus musculus with 4 samples.

Results

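The genes described here carry a name given for spermatogenesis. They are all genes of the platform annotation whose symbol starts with Spata (spermatogenesis associated), Tex (testis expressed), Tsga (testis specific gene) or Tssk (testis specific serine kinase) followed by a digit. The rule used names only, and it found 66 of the 30651 named genes: 27 Spata, 29 Tex, 4 Tsga and 6 Tssk genes. Spata22 also fits the rule but was left out, because its only probe set is shared with the olfactory receptor gene Olfr20. That probe set was at 3.95 to 4.29 on the 4 arrays. One gene, Tex16, had 2 probe sets, and the one with the higher mean over the arrays was used.

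RNA of whole trachea and whole oviduct was measured on 4 Affymetrix arrays, 1 per group: trachea labelled Gemc1-null and WT trachea, both from male mice of 39 days, and oviduct labelled Gemc1-null and WT oviduct, both from female mice of 65 days. All 4 samples came from a mixed C57BL/6 x 129 background, were frozen without culture and had no treatment. The labels call the mutants null and say no more of the allele, nor whether a sample is 1 animal or several. Gemc1 is now named Gmnc. No group had a replicate, so a difference within a tissue carries no error and no test, and the number of arrays limits the precision of every value.

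Multiciliated cells line the trachea, where their beating cilia move mucus, and the oviduct, where they help to move the egg. Gmnc encodes a relative of geminin that starts the gene programme of these cells. The tail of a sperm is built around the same microtubule axoneme as a motile cilium, so that some genes first found in testis serve both, while others act in meiosis, in the sperm head or in every cell. The comparison asks which testis-named genes differ in ciliated tissue labelled null for Gmnc.

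Levels are log2 RMA signals, and within each tissue the WT level was subtracted from the level labelled Gemc1-null, so that a negative difference means lower in the mutant. The part of the gene that was deleted is unknown here. Over all probe sets the arrays had medians of 5.91 to 6.00. The negative-control probe sets had medians of 5.74 in trachea labelled Gemc1-null and 5.98 in WT trachea. Their medians were 5.79 in oviduct labelled Gemc1-null and 5.77 in WT oviduct. A level below the negative-control median of its array is called background here. A high percentile of these probe sets, exceeded by few of them, was 8.70 in trachea labelled Gemc1-null and 8.87 in WT trachea. It was 8.74 in oviduct labelled Gemc1-null and 8.71 in WT oviduct. A level above background can thus lie within the range of the negative controls, and does not by itself show expression. The probe set of Gmnc gave 4.63 in trachea labelled Gemc1-null and 5.90 in WT trachea, and 8.86 in oviduct labelled Gemc1-null and 6.11 in WT oviduct. Both trachea levels were background, and the oviduct value goes against the label. If the probe set lies outside the deleted part, which is not known, it checks nothing. Every direction below rests on the labels. Of 18 multiciliated cell markers 15 were read by a probe set of their own, and 14 of the 15 passed 2-fold lower in each tissue. Their summed signal, not in log2, was 782 in trachea labelled Gemc1-null and 7310 in WT trachea, and 852 in oviduct labelled Gemc1-null and 9460 in WT oviduct. In a whole tissue, fewer cells of a type and less RNA per cell cannot be told apart. Other cell types differed between the same arrays too. In trachea 6 of 6 skeletal muscle, 4 of 4 squamous and 3 of 3 basal cell markers were at least 2-fold higher. In trachea 6 of 6 airway secretory, 3 of 3 lymphocyte and 3 of 4 general epithelial markers were at least 2-fold lower, the last being Krt8 (-3.04), Krt18 (-2.69) and Epcam (-1.07), while 0 of the 4 differed by 2-fold in oviduct. In oviduct 6 of 8 ovary somatic and 6 of 8 oocyte markers were at least 2-fold lower. Their part in the differences below was not tested.

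Few testis-named genes differed by 2-fold, as was the case for genes in general. In trachea 4 of the 66 were at least 2-fold lower (6.06%, against 5.26% of all named genes) and 0 were at least 2-fold higher (4.39% of all named genes). In oviduct 3 were at least 2-fold lower (4.55%, against 1.84% of all named genes) and 1 was at least 2-fold higher (1.52%, against 0.558%). Only 2 of the 66, Spata18 and Spata17, passed 2-fold lower in each tissue (3.03%, beside 0.812% of all), and 0 were at least 2-fold higher in both (0.0424% of all named genes). The share lower in trachea lies near that of all genes and is not a result about these genes. With levels below the negative-control median set to that median, 2 were lower in trachea (4.56% of all named genes) and 1, Spata18, in both (0.695%). In all 60 of the 66 differed by less than 2-fold in each tissue (90.9%, against 89.1% of all named genes), and 54 by less than 0.5 on the log2 scale in each (81.8%, against 73.5%). Among the 66 are 29 that were background on every array, where a drop could not be measured, beside 8858 of all 30651 named genes. The median difference was 0.07 in trachea and -0.01 in oviduct, beside 0.06 and 0.05 over all named genes.

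**Figure D1:**
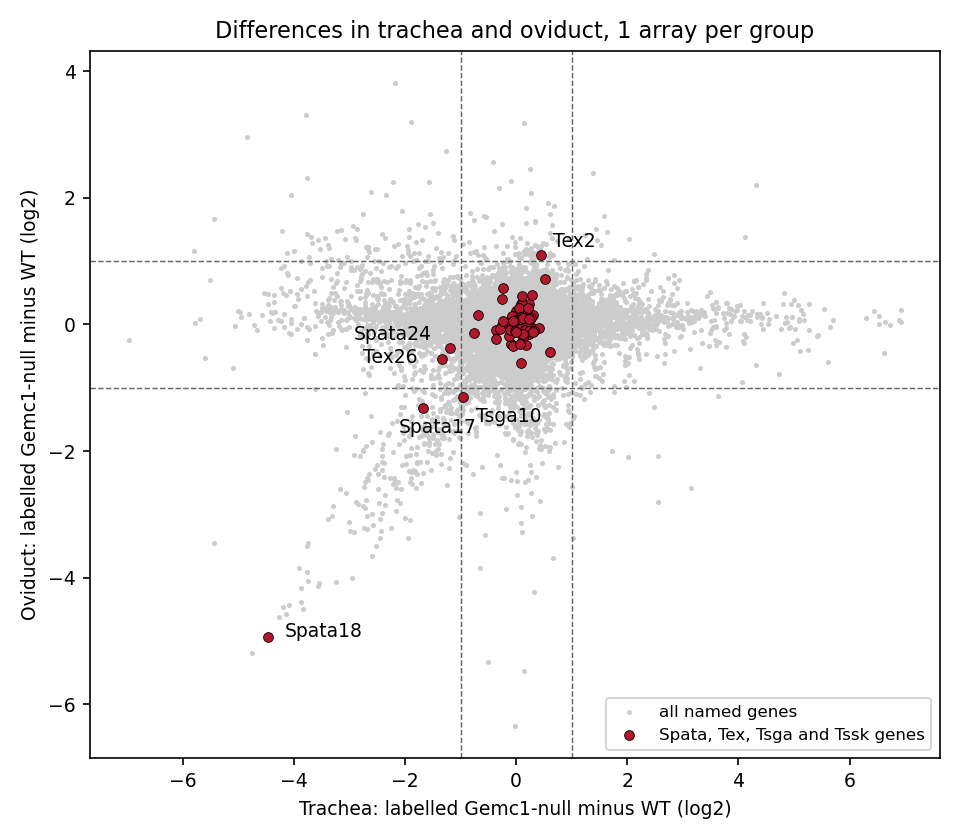
Each red dot is 1 of the 66 testis-named genes and each grey dot 1 of all named genes, with the log2 difference (array labelled Gemc1-null minus WT) in trachea on the x axis and in oviduct on the y axis, and dashed lines at 2-fold. Spata18 lies at -4.46 and -4.93, Spata17 at -1.67 and -1.31, and 60 of the 66 dots lie inside the lines of both tissues.

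Spata18 (NCBI gene 73472) had the largest difference of the 66 genes in each tissue. It encodes Mieap, a p53-induced protein known for the quality control of mitochondria, and is not known as a part of the axoneme. Its level was 5.59 in trachea labelled Gemc1-null and 10.05 in WT trachea. In oviduct it was 5.57 on the array labelled Gemc1-null and 10.51 on the WT array. Both arrays labelled Gemc1-null stood below the negative-control median and both WT arrays far above it, so the drop is a bound: at least 19.7-fold lower in trachea and at least 26.2-fold lower in oviduct, taken against that median. Over the 15 multiciliated markers the measured differences ran from -4.74 to -0.84 in trachea, with a median of -3.56, and from -5.19 to -0.82 in oviduct, with a median of -4.05. Of these markers 10 were background on each array labelled Gemc1-null, so their measured differences are limited by background as that of Spata18 is. The summed signal of the 66 genes, not in log2, was 5150 and 6440 on the trachea arrays (labelled Gemc1-null, then WT) and 6120 and 7320 on the oviduct arrays. Without Spata18 it was 5110 and 5380 in trachea and 6070 and 5870 in oviduct, so that Spata18 made up most of the gap in trachea and all of it in oviduct.

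The genes on either side of Spata18 on the chromosome did not reach 2-fold lower in either tissue. Sgcb, which encodes beta-sarcoglycan of muscle membranes, was at 9.40 in trachea labelled Gemc1-null and 8.26 in WT trachea, and at 7.50 in oviduct labelled Gemc1-null and 8.27 in WT oviduct. Its higher level in trachea stands beside skeletal muscle markers, of which 6 of 6 were higher there, and their part in it was not tested. For Usp46, a deubiquitinating enzyme, the differences were 0.35 in trachea, -0.49 in oviduct. The promoters of Spata18 and Spata17 are shown because they belong to the genes that passed 2-fold lower in each tissue. They are RefSeq sequences of build GRCm38.p6, 250 bases before the annotated start in lower case and the 50 bases from the start on in capitals, for Spata18 at chr5:73651130-73651429 on the plus strand and for Spata17 at chr1:187215397-187215696 on the minus strand.
Spata18: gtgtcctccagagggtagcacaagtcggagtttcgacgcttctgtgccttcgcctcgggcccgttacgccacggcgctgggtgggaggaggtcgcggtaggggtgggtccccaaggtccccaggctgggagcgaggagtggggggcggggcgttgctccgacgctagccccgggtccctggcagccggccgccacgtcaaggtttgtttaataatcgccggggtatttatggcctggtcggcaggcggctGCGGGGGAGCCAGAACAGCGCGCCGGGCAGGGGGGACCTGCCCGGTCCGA
Spata17: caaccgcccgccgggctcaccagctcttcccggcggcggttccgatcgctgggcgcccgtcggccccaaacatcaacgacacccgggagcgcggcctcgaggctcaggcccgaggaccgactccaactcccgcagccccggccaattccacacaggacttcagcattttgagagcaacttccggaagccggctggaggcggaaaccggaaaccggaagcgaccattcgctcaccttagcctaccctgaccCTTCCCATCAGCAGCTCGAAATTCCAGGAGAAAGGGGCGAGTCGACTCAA
Both are rich in G and C, with 69.7% for Spata18 and 64.7% for Spata17, against a median of 52.7% over all promoters of the table.

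The promoters were searched on both strands for the letters of sites of factors known to act in ciliated cells or beside Gmnc. These were the X-box of the RFX factors (GTTNCC, a gap of 0 to 3 bases, GGNAAC), the shorter RFX site GTTGCCA, the forkhead site TGTTTAC and the E2F site GCGGGAAA. The shorter RFX site can lie within an X-box, and the other motifs do not overlap by their letters. The table held a promoter for 57 of the 66 genes. Neither Spata18 nor Spata17 had a match to any of the 4 motifs in its window. Of the 57 genes 0 had the X-box in the form searched (0.936% of all genes in the table) and 0 the forkhead site (4.05%). The shorter RFX site was found in 4 (7.02%, against 5.02%) and the E2F site in 2 (3.51%, against 1.24%). Looser forms of the X-box were not searched, so the 0 holds for that form alone. The shorter RFX site, in capitals below, is shown for the 4 genes that had it: Spata4 (chr8:54600765-54600791, plus strand), Spata31d1a (chr13:59706426-59706447, minus strand), Spata33 (chr8:123212852-123212878, plus strand) and Tex33 (chr15:78395933-78395959, plus strand, antisense to the gene).
Spata4: cagctgatctGTTGCCAtagaaaccca
Spata31d1a: gcctaGTTGCCAaggctgtgaa
Spata33: gcggcacgcgGTTGCCAtggtaatgag
Tex33: gtgcattgaaGTTGCCAtggcgacact
Spata33 differed by -0.10 in trachea, by -0.30 in oviduct, and Tex33 by 0.08 and 0.11. Spata4, background on every array, had differences of -0.06 and -0.34, and Spata31d1a of 0.09 and 0.33, so that none of the 4 differed by 2-fold. A match describes letters in a window and shows no binding.

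Among the 8 genes tied to the cilium, the centrosome or the sperm tail, Spata17 passed 2-fold in both tissues, Tsga10 in oviduct alone, and the other 6 in neither. All levels of the 8 genes, 7.83 at most, lay below the high percentile of the negative controls. These levels do not by themselves show expression. Spata17 (NCBI gene 74717) encodes a protein with IQ motifs, which bind calmodulin. It was at 4.83 in trachea labelled Gemc1-null and 6.50 in WT trachea, and at 5.74 in oviduct labelled Gemc1-null and 7.06 in WT oviduct. Both levels labelled Gemc1-null were background, and against the negative-control median the gene was at least 1.69-fold lower in trachea, a bound short of 2-fold, and at least 2.40-fold lower in oviduct. Tsga10 (NCBI gene 211484) encodes a protein of the sperm tail that also sits at the centrosome. It was at 5.59 in trachea labelled Gemc1-null and 6.54 in WT trachea, and at 5.84 in oviduct labelled Gemc1-null and 6.98 in WT oviduct. Its differences of -0.95 and -1.14 put it just outside 2-fold in trachea and just inside in oviduct. In trachea the level labelled Gemc1-null was background, and the gene was at least 1.74-fold lower. By the smaller of a gene's drops in the 2 tissues, Tsga10 was the nearest to passing in both, followed by Tex26, Spata24 and Tex9. Its neighbours Cracdl (-0.60 in trachea and -0.01 in oviduct) and Lipt1, which encodes a lipoyl transferase (0.12 and 0.21), differed by less than 2-fold.

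The rest of that group showed smaller differences. Spata6, needed for the connecting piece between sperm head and tail, was at 7.07 in trachea labelled Gemc1-null and 7.83 in WT trachea, and at 7.58 in oviduct labelled Gemc1-null and 7.71 in WT oviduct. Its difference was therefore -0.76 in trachea and -0.13 in oviduct. Tex9, a centrosomal protein, differed by -0.36 and -0.24, and Spata7, which is needed at the photoreceptor's connecting cilium, by -0.13 and -0.18. Tex37 and Tex43, known as proteins inside the microtubules of the sperm tail, stood below the negative-control median in WT trachea, at 5.34 and 5.81, and differed by less than 0.5 in either tissue. In this group of 8 the median difference was -0.24 in trachea and -0.17 in oviduct, beside 0.06 and 0.05 over all named genes.

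How many of the lower genes fall into a cilium group depends on how the groups are drawn. The roles used here were redrawn after the values had been seen, to leave out roles that are not certain. The earlier grouping counted Spata18, Tex26 and Spata24 with the cilium or flagellum, along with several spermatid genes. In that grouping 4 of 17 cilium or flagellum genes passed 2-fold lower in trachea (5.26% of all named genes), 3 of 17 in oviduct (1.84% of all) and 2 of 17 in both (0.812% of all), so that it held every lower gene among the 66. In the redrawn group of 8 the counts were 1 in trachea, 2 in oviduct and 1 in both. Under the earlier grouping 0 of 14 germ-line genes, 0 of 6 Tssk genes and 0 of 17 ungrouped genes differed by 2-fold, and among 12 general genes 1 did, Tex2 in oviduct. Of all named genes 89.1% differed by less than 2-fold in each tissue. Background on all 4 arrays were 10 of the 14 germ-line, 3 of the 6 Tssk and 8 of the 17 ungrouped genes. So were 6 of the 17 cilium or flagellum genes, and for all of these a drop could not be measured.

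**Figure D2:**
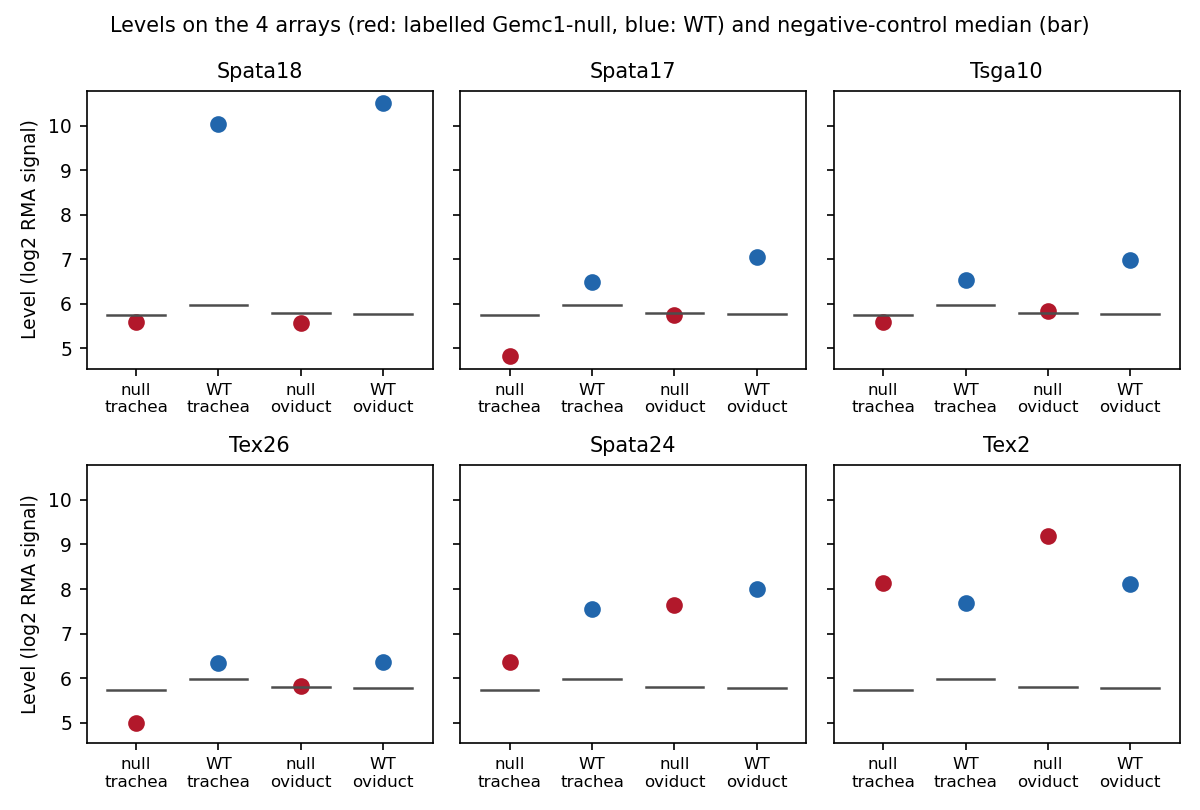
Levels (log2 RMA signal, y axis) of the 6 testis-named genes that differed by at least 2-fold in either tissue are drawn for the 4 arrays, with red dots for arrays labelled Gemc1-null, blue dots for WT and a bar at each array's negative-control median. Spata18 is at 10.05 and 10.51 on the WT arrays and below the bar on both others, and Spata17 is below the bar on both arrays labelled Gemc1-null too.

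Of the members with no role stated here, Tex26 and Spata24 were at least 2-fold lower in trachea and not in oviduct. Tex26 (NCBI gene 75860) was at 5.0 in trachea labelled Gemc1-null and 6.33 in WT trachea, and at 5.82 in oviduct labelled Gemc1-null and 6.37 in WT oviduct. The trachea level labelled Gemc1-null was background, and against the negative-control median Tex26 was at least 1.51-fold lower in trachea. All 4 levels of Tex26 lay below the high percentile of the negative controls and do not by themselves show expression. Spata24 (NCBI gene 71242) was at 6.36 in trachea labelled Gemc1-null and 7.56 in WT trachea, and at 7.64 in oviduct labelled Gemc1-null and 8.01 in WT oviduct. All 4 of its levels were above the negative-control median and below the high percentile of the negative controls. It was 2.28-fold lower in trachea and 1.29-fold lower in oviduct. Whether the tissues differ in these genes was not tested, as there was 1 array per group. Next to Tex26 on the chromosome lies Wdr95, which was lower in both tissues: it was at 5.21 in trachea labelled Gemc1-null and 7.23 in WT trachea, and at 5.52 in oviduct labelled Gemc1-null and 7.35 in WT oviduct. Medag, on the other side of Tex26, was 0.61 higher in trachea and 0.13 higher in oviduct on the log2 scale. Of the neighbours of Spata24, Prob1 had differences of 0.06 for trachea and -0.62 for oviduct, and Dnajc18 of 0.20 and 0.07.

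Tex2 was the only member at least 2-fold higher in either tissue. It encodes a membrane protein of the endoplasmic reticulum with a lipid-binding domain, and despite its name is found in many tissues. Tex2 (NCBI gene 21763) was at 8.13 in trachea labelled Gemc1-null and 7.69 in WT trachea, and at 9.20 in oviduct labelled Gemc1-null and 8.10 in WT oviduct. It was 1.36-fold higher in trachea and 2.13-fold higher in oviduct. Its neighbour Ern1, which encodes the endoplasmic reticulum stress sensor IRE1-alpha, was at 9.70 in oviduct labelled Gemc1-null and 8.79 in WT oviduct, and differed by 0.35 in trachea. Pecam1, an endothelial gene on the other side, differed by -1.88 in trachea and -0.20 in oviduct.

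Of the 7 genes of germ cells before the spermatid, 5 were below the negative-control median on all 4 arrays, beside 8858 of all 30651 named genes. Among the 5 were Tex11 and Tex12, which act on meiotic chromosomes, and Tex14, which is needed for the bridges between germ cells. Their levels over the 4 arrays were 3.43 to 4.09 for Tex11, 4.30 to 4.47 for Tex12 and 5.03 to 5.37 for Tex14. Tex19.1, which acts in the germ line and the placenta, was at 6.11 in trachea labelled Gemc1-null and 5.92 in WT trachea, and at 6.16 in oviduct labelled Gemc1-null and 5.92 in WT oviduct. None of the 7 differed by 2-fold. Tex15, which acts in the silencing of transposons in male germ cells, was at 4.69 in trachea labelled Gemc1-null and 4.59 in WT trachea, and at 5.07 in oviduct labelled Gemc1-null and 5.69 in WT oviduct. All 4 levels of Tex15 were background. Beside its difference of -0.61 in oviduct stand the oocyte markers, of which 6 of 8 were at least 2-fold lower there, with a summed signal, not in log2, of 349 on the array labelled Gemc1-null and 879 on the WT array. On the array labelled Gemc1-null 7 of the 8 oocyte markers were below the negative-control median, and on the WT array 1. Their part in the level of Tex15 was not tested.

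Of the 4 spermatid genes 2 were background on all arrays and 2 were above it, and 0 differed by 2-fold. Spata16, a protein of the forming acrosome, was at 4.83 to 5.09 and Spata19, a protein of sperm mitochondria, at 4.08 to 4.37 over the 4 arrays, both background throughout. Spata33, which ties calcineurin to sperm mitochondria, was at 6.83 to 7.13. Tsga8, a spermatid gene on the X chromosome, was at 6.86 to 7.10, and both differed by less than 0.5. Their levels too lay below the high percentile of the negative controls and do not show expression. Of 10 spermatid markers outside the name rule, among them the protamines Prm1 and Prm2, 0 differed by 2-fold in either tissue, and likewise 0 of 10 markers of meiotic and earlier germ cells. A difference below 2-fold in each tissue held for 89.1% of all named genes. The summed signal of the spermatid list, not in log2, was 617 in trachea labelled Gemc1-null and 577 in WT trachea, and 720 in oviduct labelled Gemc1-null and 738 in WT oviduct.

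The 6 Tssk genes encode kinases of late spermatids. Tssk6 was at 7.43 in trachea labelled Gemc1-null and 7.36 in WT trachea, and at 7.32 in oviduct labelled Gemc1-null and 7.62 in WT oviduct. Tssk4 was at 6.82 and 7.06 on the trachea arrays labelled Gemc1-null and WT, and at 7.26 and 7.21 on the oviduct arrays in the same order. Tssk3 was above the negative-control median on all arrays too, at 6.03 to 6.36. All levels of Tssk6, Tssk4 and Tssk3 lay below the high percentile of the negative controls, so they do not show expression. The other 3, Tssk1 (4.22 to 4.79), Tssk2 (3.70 to 3.82) and Tssk5 (5.39 to 5.68), were background on all 4 arrays. The differences of the 6 genes ran from -0.23 to 0.32 in trachea and from -0.30 to 0.57 in oviduct, and the upper end in oviduct belonged to Tssk1, at 4.79 on the array labelled Gemc1-null and 4.22 on the WT array, both background.

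Of the remaining Tsga genes, Tsga13 was at 3.78 to 4.05, background on every array, and Tsga10ip, whose product is named for binding that of Tsga10, was at 6.44 to 6.65. Tsga10ip was 0.13 higher in trachea and 0.10 higher in oviduct on the log2 scale. The 5 genes of the Spata31 family, each read by 1 probe set, differed by 0.00 to 0.27 in trachea and by -0.01 to 0.33 in oviduct. How far these probe sets tell related genes apart was not tested. The 3 X-linked Tex13 genes were at 3.99 to 5.90 on all arrays, with differences of -0.25 to 0.24 in trachea and of 0.32 to 0.40 in oviduct. No Spata31 or Tex13 gene reached 2-fold. Spata31d1a was at 6.72 and 6.63 in trachea labelled Gemc1-null and WT, and at 7.31 and 6.99 in oviduct in the same order.

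**Figure D3:**
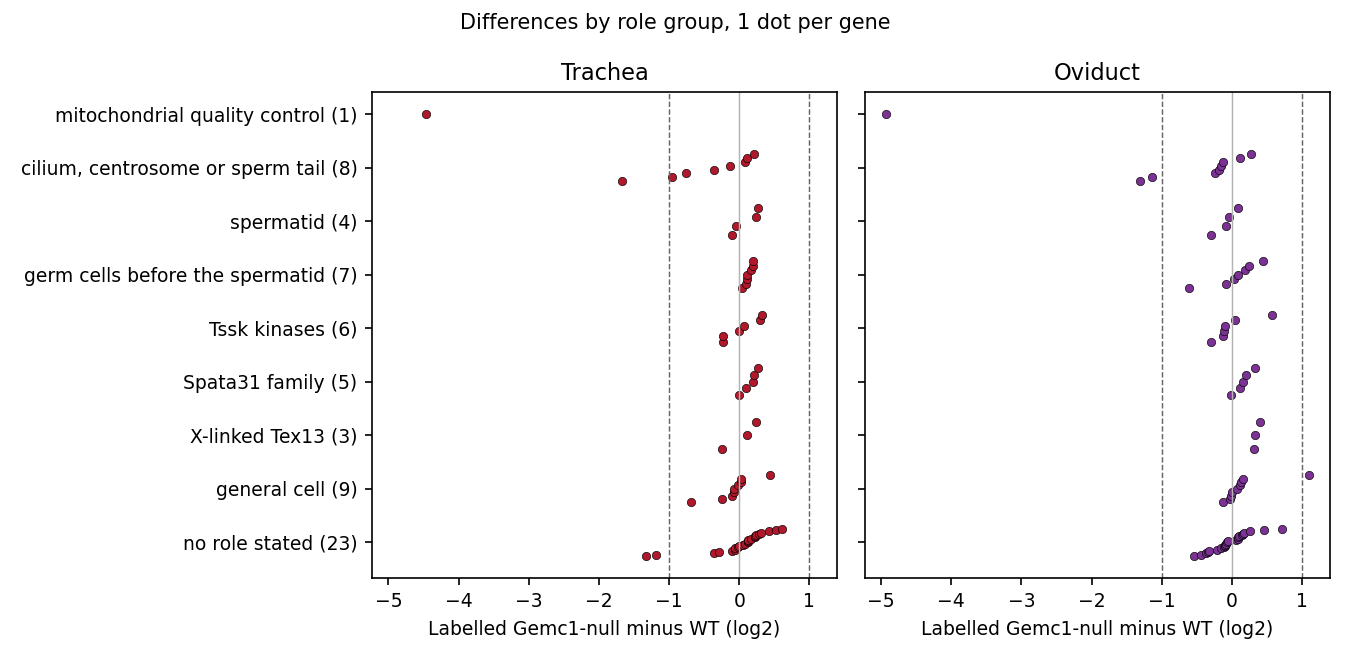
Log2 differences (x axis, array labelled Gemc1-null minus WT) of the 66 testis-named genes are drawn by role group, 1 dot per gene, for trachea at left and oviduct at right, with dashed lines at 2-fold and group sizes in brackets. Beyond the lines lie Spata18, 2 genes of the cilium group, 2 genes with no role stated and Tex2.

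A further set of members owes only its name to the testis and acts in cells in general. All 9 of these genes were above the negative-control median on every array. Tex264, a receptor for the degradation of endoplasmic reticulum, was at 9.17 in trachea labelled Gemc1-null and 9.18 in WT trachea, and at 9.38 in oviduct labelled Gemc1-null and 9.31 in WT oviduct. Tex261, a membrane protein of the secretory pathway, had differences of -0.07 for trachea and 0.13 for oviduct, and Tex10, a nuclear protein of ribosome assembly, of -0.25 and -0.01. Spata2, an adaptor of the deubiquitinase CYLD in TNF signalling, differed by -0.07 and -0.13, and Spata5, an ATPase of ribosome assembly, by -0.10 in trachea. Spata13, an exchange factor for small GTPases, was at 7.07 in trachea labelled Gemc1-null and 7.76 in WT trachea, and at 8.05 in oviduct labelled Gemc1-null and 7.89 in WT oviduct. Apart from Tex2 in oviduct, 0 of the 9 differed by 2-fold.

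Of the 23 genes with no role stated, 14 were background on all 4 arrays, beside 8858 of all 30651 named genes. Besides Tex26 and Spata24, those of the 23 that differed by more than 0.5 were Spata45 and Tex24. Spata45 was at 5.17 in trachea labelled Gemc1-null and 4.65 in WT trachea, and at 5.20 in oviduct labelled Gemc1-null and 4.49 in WT oviduct. Tex24 was at 4.93 and 4.32 on the trachea arrays labelled Gemc1-null and WT, and at 4.51 and 4.94 on the oviduct arrays in the same order. All 8 of these levels were background. Of those above background, Spata21 was 0.31 higher in trachea and 0.15 higher in oviduct on the log2 scale, and Spata32 was at 6.28 in both trachea samples and 0.15 higher in oviduct labelled Gemc1-null than in WT oviduct. 

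In WT oviduct against WT trachea 1 of 66, Tex15, differed by at least 2-fold, against 8.01% of all named genes, at 5.69 in oviduct and 4.59 in trachea, both background. Spata18 was 0.46 higher in WT oviduct than in WT trachea on the log2 scale, Spata17 0.55 higher and Tsga10 0.44 higher.

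Names change, and the RefSeq table lists genes that were once given a testis name. Of the genes whose current symbol no longer fits the rule, 21 on the array had such an older name, and 3 of them (14.3%, against 0.812% of all named genes) passed 2-fold lower in each tissue: Rsph1 (once Tsga2), a radial spoke head protein, Maats1 (once Spata26), a gene of the motile axoneme also called Cfap91, and 4430402I18Rik (once Spata6l). This set was looked up after the values of the 66 genes were seen. Rsph1 is also among the 15 multiciliated markers above, so the set is not separate from them. An older name can be listed for more than 1 gene, as Tex40 is for Catsperz and Kcnk4. Rsph1 was at 6.34 in trachea labelled Gemc1-null and 8.04 in WT trachea, and at 6.42 in oviduct labelled Gemc1-null and 8.07 in WT oviduct. Maats1 was at 5.32 in trachea labelled Gemc1-null and 7.15 in WT trachea, and at 5.46 in oviduct labelled Gemc1-null and 7.78 in WT oviduct, at least 2.64-fold lower in trachea and at least 3.97-fold lower in oviduct. 4430402I18Rik was at 5.85 in trachea labelled Gemc1-null and 7.32 in WT trachea, and at 6.16 in oviduct labelled Gemc1-null and 7.29 in WT oviduct. Its relative Spata6, a member by its present name, differed by less than 2-fold in both. Cep41 (once Tsga14), a centrosomal and ciliary protein, differed by -0.41 in trachea, by -0.23 in oviduct, and the sperm channel gene Catsperz (once Tex40) by 0.67 and 0.24. A further 10 genes received a testis name after the annotation was made, among them Spata46, Spata48, Tex45 and Tex47. Of these 10, 9 were background on all 4 arrays, beside 8858 of all 30651 named genes, and 0 of the 10 differed by 2-fold in either tissue.

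Of 34 Cfap genes, named for cilia and flagella, 20 were at least 2-fold lower in both (58.8%), and of 139 Ccdc genes, named for a coiled coil, 18 were (12.9%), against 2 of 66 testis-named genes (3.03%) and 0.812% of all named genes. The families also differ in how many genes could show a drop. Background on all 4 arrays were 29 of the 66 testis-named genes, 1 of the 34 Cfap genes and 29 of the 139 Ccdc genes. The difference between these families was not tested, since the families were compared within the same arrays and genes are not replicates.

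**Figure D4:**
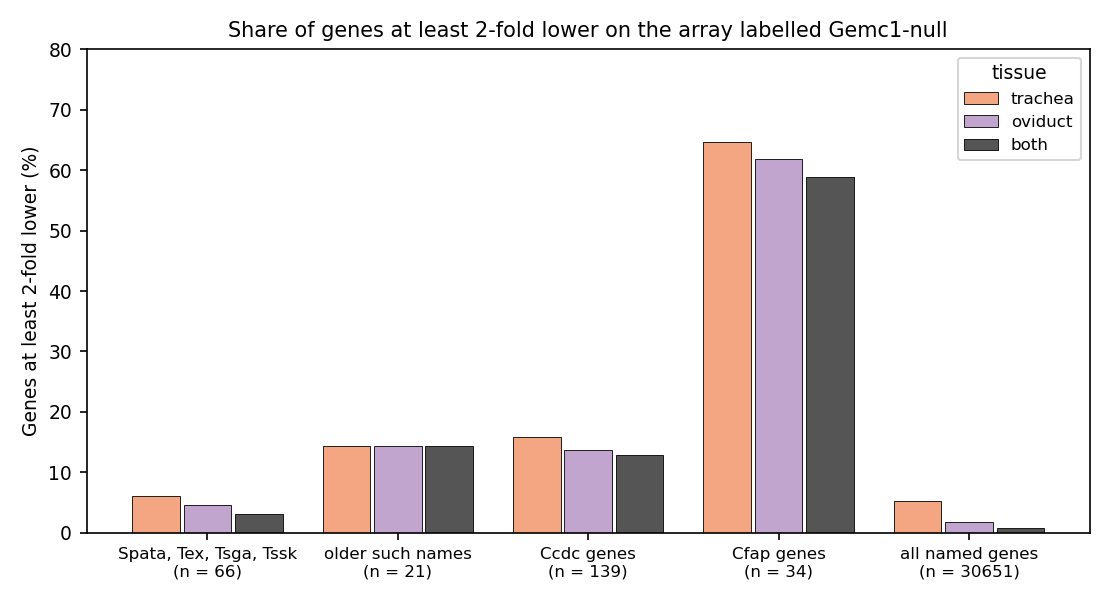
Bars give the share of genes (percent, y axis) at least 2-fold lower on the array labelled Gemc1-null in trachea, in oviduct and in both, for the testis-named genes, genes that once had such a name, Ccdc genes, Cfap genes and all named genes, with the number of genes under each. The share in both tissues was 3.03% for testis-named genes and 58.8% for Cfap genes. Background on all 4 arrays were 29 of the 66 testis-named genes and 1 of the 34 Cfap genes.

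All 4 arrays were fitted together with tissue as a block, which leaves 1 residual degree of freedom and tests what the tissues have in common. After Benjamini-Hochberg adjustment over 30651 genes, limma called 0 of the 66 genes and 0% of all genes at 0.05. At an unadjusted p under 0.05 limma had 4 members lower, beside 2.26% of all genes, and 2 higher, beside 1.18%. The 4 were Spata18 (shared log2 difference -4.70, SE 0.19, limma adjusted p = 0.462), Spata17 (-1.49, SE 0.17, limma adjusted p = 0.619), Tsga10 (-1.05, SE 0.14, limma adjusted p = 0.787) and Tex26 (-0.94, SE 0.27, limma adjusted p = 0.809). The 2 higher were Spata45 (0.62, SE 0.14) and Tex2 (0.77, SE 0.23), each with a limma adjusted p of 0.809. In this fit the residual is the disagreement between the tissues, so the shared direction of these 6 follows from how they were picked. None of the 6 passed adjustment. Background on the arrays labelled Gemc1-null limits the values of Spata18 and Spata17 in both tissues, of Tsga10 and Tex26 in trachea, and Spata45 was background on every array.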

How the data were processed

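The deposited table holds 1 value per probe set and array on a log2 scale. RMA, a method of background correction, normalization and probe summary, is named in the submitters' processing notes, with no version, setting or genome build. Log2 seems to have been taken once more before the authors deposited the table. Raised as powers of 2, the values had 6 significant digits in 100% of cells (relative tolerance 1e-09), against 0.044% of the values themselves, so levels here are 2 to the power of the deposited value. Of 72688 probe sets 6732 were controls, among them 5222 negative controls. Gene names are those of the platform annotation, brought up to date with RefSeq genes (GRCm38.p6). Of 32750 listed probe sets 31269 resolved to 1 gene, giving 30651 genes, and 1481 stayed unnamed. For genes with several probe sets the one with the highest mean was used. No filter on low values was applied. Where the array labelled Gemc1-null lay below its negative-control median, a named fold is a lower bound, the WT level over that median.

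Groups came from the labels' titles. Within a tissue genes were counted at 2-fold with no test. Tissues were joined in limma 3.58.1 (R 4.3.3), moderated by empirical Bayes and adjusted over all genes, after a test on simulated data. In the simulation every gene had the same spread and the changed genes the same drop in both tissues. It does not show how the fit performs on these data. Named genes were those at least 2-fold lower in both tissues, the 8 largest differences per tissue and direction past 2-fold, the 6 highest mean WT levels, all Tssk and Tsga genes, up to 4 on each side nearest to 2-fold in both tissues (2 lay inside), and up to 4 per role group with the highest WT level. The first role groups were redrawn after the members' values had been seen, which changes which group holds the lower genes, so the counts of both versions are given. Other genes named as examples of a role, genes next to a member and the criteria for singling out results were also chosen after the values were seen. The members and lists were chosen with earlier results of these data known. Alternatives are given in the closing section.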

Additional observations from a re-analysis of the deposited data

How the results depend on the processing

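Counts of testis-named genes are small, so a change of 1 or 2 genes moves them. At a 1.5-fold threshold 7 of 66 were lower in trachea (9.34% of all named genes), 1 higher in trachea (8.86%) and 2 higher in oviduct (2.37%). At 3-fold 2 of 66 were lower in trachea (2.87% of all named genes) and 1 lower in both (0.434%). In oviduct 1 was then lower (0.878%) and 0 higher (0.124%). With levels below the negative-control median set to that median, 2 were lower in trachea (4.56% of all named genes) and 1 in both (0.695%). Spata17 (-0.76) and Tex26 (-0.59) then missed 2-fold in trachea, and limma called 1 member and 718 of all genes (2.34%). That setting gives all genes that were background on every array the same differences by construction, -0.24 in trachea and 0.02 in oviduct. Their residuals are then equal too, and limma moderates each gene by the residuals of all genes. The calls of that setting cannot be read beside those of the main fit. Centring on the median difference brought Tsga10 to -1.02 in trachea, with 5 lower there (5.7% of all named genes) and 3 in both (0.884%). Adding genes with an older testis name, chosen after the data were seen, made a set of 87 genes. Of these 7 were lower in trachea (5.26% of all named genes), 6 in oviduct (1.84%) and 5 in both (0.812%). Averaging probe sets, counting every probe set, a level filter and current symbols left each 2-fold count as it was, and an intensity trend, no tissue block and the level filter left 0 members called by limma. The labels give no replicate numbers, and the tissue block of the limma fit, which pairs the arrays within a tissue, is the only pairing. No array could be left out, since this leaves no residual. Signal over background limits all genes that start near the negative-control median in WT tissue.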
